A study of Mus musculus with 16 samples.

Results

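The genes described here encode the proteins that pause, release and terminate RNA polymerase II (Pol II). They comprise 48 genes of the 24974 genes listed in both of the deposited count tables, and they were chosen by name as subunits of known complexes. Of them, 12 encode subunits of Integrator, 16 factors of mRNA cleavage and polyadenylation, 4 NELF, 5 the PAF1 complex, 4 P-TEFb and its inhibitor, 2 DSIF, 2 histone chaperones of elongation, 2 the restrictor complex and 1 the termination exonuclease Xrn2. All 48 passed the filter on low counts in each comparison below, and none had fewer than 84 counts in any sample.

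Soon after it starts, Pol II is held in place by DSIF and NELF. P-TEFb, the kinase Cdk9 with a cyclin T, phosphorylates these factors and the polymerase and lets it go, unless Hexim1 keeps the kinase inactive in the 7SK particle, and DSIF then travels on with the PAF1 complex and Spt6. Polymerases that are not released can be taken off by Integrator, which cuts the nascent RNA and carries the phosphatase PP2A, or by the restrictor, while at gene ends the cleavage and polyadenylation factors cut the transcript and Xrn2 degrades the RNA still attached to Pol II. Tox4 binds the nuclear PP1 phosphatase complex that acts on Pol II, and the comparison below asks whether the mRNAs of these machines are at other levels in thymocytes without it.

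Poly(A) RNA was sequenced from mouse thymocytes of 2 genotypes and 2 cell types in 16 samples. Control mice were Tox4;F/F, with exons 4 to 6 of both *Tox4* alleles flanked by loxP sites and without Cre, and cKO mice were Tox4;F/F;Lck-cre, in which the proximal *Lck* promoter drives Cre from the DN3 stage, so that the deletion is limited to developing T cells and their progeny. The floxed allele was made on the C57BL/6 background, and the methods of the study state that sex-matched littermates aged 6 to 8 weeks were used. Double-positive (DP) cells, which carry CD4 and CD8, came from 3 control and 3 cKO samples and CD8 cells, sorted for TCR beta and CD8, from 5 control and 5 cKO samples, and the methods name flow sorting of both cell types for RNA-seq. From 16524506 to 18484568 fragments were counted on genes in DP control samples, 14583336 to 25981683 in DP cKO samples, 9420085 to 13530783 in CD8 control samples and 8514135 to 11828492 in CD8 cKO samples. Whether each sample came from its own animal is not stated for these libraries, so p-values measure the spread between samples.

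*Tox4* itself (chromosome 14, 52279146 to 52295509 of mm10) was read first as a check of the labels, in CPM, counts scaled to library size by the TMM method of edgeR. It had 154, 172 and 180.3 CPM in DP control replicates 1 to 3 and 133, 141 and 131 CPM in DP cKO replicates 1 to 3, so every DP cKO sample lay below every DP control sample. The log2 fold change of -0.32 (standard error, SE, 0.11, adjusted p = 0.381) did not pass the test. Adjusted p-values are those of edgeR unless DESeq2 is named. CD8 control replicates 1 to 5 had 197, 188, 200.1, 201 and 178 CPM and CD8 cKO replicates 1 to 5 had 169, 185, 176, 234 and 164 CPM, a log2 fold change of -0.06 (SE 0.10, adjusted p = 0.979). The library labelled CD8 cKO replicate 4 was above all 5 control samples, and this gene does not check its label. Its gamma-delta T cell markers (below) lay with those of the other cKO samples. They are shown because the genotypes lay apart with this library among the cKO samples, so they are no separate check. The CD8 value was -0.15 (SE 0.07, adjusted p = 0.895) without that library and -0.14 (SE 0.07, adjusted p = 0.716) when CD8 control replicate 1 was also left out. The tables count the whole gene and not its exons, so the loss of exons 4 to 6 was not measured. The study judged the deletion efficient by Western blot of unsorted and sorted thymocytes of these genotypes, a measure of protein and not of these libraries.

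A further library stood apart. In CD8 control replicate 1, 17741 genes had a count, while replicates 2 to 5 of its group had 13708 to 14194. The count of called members, *Tox4*, *Zc3h4* and *Supt4a* in CD8 cells are therefore also given without this library and CD8 cKO replicate 4. The 9 DP markers summed to 14156 to 17276 TPM (counts per exonic length, scaled to the same total in each sample) in DP control samples and 6021 to 8670.1 TPM in CD8 control samples, where *Cd3e*, shared by all these cells, is the most abundant. Among them *Rag1* had 3606 TPM in DP control samples and 25.5 TPM in CD8 control samples, and *Cd4* had 1675 and 30.7 TPM. *Klf2* and *S1pr1*, which mature cells use to leave the thymus, had 1065 and 780.3 TPM in CD8 control samples and 13.3 and 3.49 TPM in DP control samples. Both are among 10 CD8 lineage markers, of which *Cd8a* and *Cd8b1* went the other way. Those had 1578 and 1787 TPM in CD8 control samples and 1975 and 2960 TPM in DP control samples. All other genes of that list had a higher mean in CD8 control samples. Of the erythroid markers, *Hba-a1* and *Hbb-bs* had 0 counts in all samples, and the 4 B cell markers summed to at most 37.7 TPM in any sample, with *Cd79a* the most abundant. The thymic epithelial list summed to at most 11.9 TPM with *Epcam* the most abundant and *Foxn1* at 0 in every DP sample, and the myeloid list reached at most 89.2 TPM, with *Lyz2* the most abundant in DP control samples and *Cd68* in the other groups.

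Some of these lists lay apart between the genotypes. The 10 CD8 lineage markers summed to 7867, 6786 and 6973 TPM in DP control replicates 1 to 3 and 6595, 5883 and 6136 TPM in DP cKO replicates 1 to 3, without overlap, with *Cd8b1* the most abundant. *Cd8a*, *Cd8b1* and *Cd3e*, which dominate this sum, are also DP markers, and mean *Cd8a* was 1975 TPM in DP control and 1410 TPM in DP cKO samples. In the same order, *Ccr7* had 34.2 and 15.8 TPM, *Il7r* 15.7 and 7.71 TPM and *S1pr1* 3.49 and 1.29 TPM. Only *Runx3* had a higher mean in cKO, with 26.0 and 27.7 TPM. The pair of CD4 lineage markers, *Zbtb7b* and *Cd40lg*, gave 23.6, 17.7 and 13.5 TPM in DP control and 9.61, 7.36 and 7.13 TPM in DP cKO samples, also without overlap. The thymic epithelial list was apart as well, at 7.81 to 11.9 TPM in DP control and 4.79 to 6.65 TPM in DP cKO samples, and 0 of 34 markers tested were called in DP cells. Within the myeloid list *Lyz2* had 18.1, 58.3 and 21.8 TPM in DP control and 9.84, 10.4 and 10.7 TPM in DP cKO samples and *Cd68* had 19.6, 19.99 and 16.4 and 27.7, 23.4 and 32.8 TPM, apart in opposite directions, while the sums of the list overlapped. In CD8 cells the gamma-delta T cell markers *Sox13* and *Cd163l1* gave 8.58, 6.40, 6.33, 3.04 and 4.92 TPM in control and 24.3, 13.3, 14.7, 13.5 and 19.4 TPM in cKO samples, again apart, and *Cd163l1* was the 1 marker of 31 tested that was called there, higher in cKO. These cells were sorted for TCR beta and CD8. Which cells these transcripts came from was not tested. Summed proliferation markers overlapped between genotypes in both cell types, from 417 to 708 TPM in DP control and 601 to 1133 TPM in DP cKO samples and from 176 to 374 TPM in CD8 control and 268 to 419 TPM in CD8 cKO samples. Whether these marker differences come from cell make-up or from expression within the sorted cells was not tested, nor was their part in the results below. In bulk RNA fewer cells of a type and less RNA per cell cannot be told apart.

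All 48 members were expressed in both cell types. Their mean levels in DP control samples ran from 15.5 TPM for *Ints2* to 368 TPM for *Supt5*, with a median of 94.1 TPM, and in CD8 control samples from 18.1 TPM for *Ints12* to 309 TPM for *Supt5*, with a median of 88.8 TPM. Over the samples of both genotypes the median level of the members was 94.4 TPM in DP and 89.2 TPM in CD8 cells, and that of all genes tested was 31.2 and 35.2 TPM. *Supt5*, *Srrt* and *Supt4a* were the 3 highest in both cell types. Of the 47 neighbouring pairs in the order of levels, 3 were apart in every DP control sample, with *Supt4a* above *Cpsf7* among them, and 1 in every CD8 control sample, *Supt5* above *Srrt*. The order between other neighbours is within the spread of the samples.

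Levels ranged widely between complexes and within Integrator. DSIF, made of Spt4 from *Supt4a* and Spt5 from *Supt5*, stood highest, at 338 ± 38.1 and 368 ± 38.7 TPM (SD, n = 3) in DP control samples. Among the restrictor genes, *Srrt*, whose product Ars2 joins the cap-binding complex, had 363 ± 31.5 TPM and the zinc finger gene *Zc3h4* 139 ± 10.1 TPM (SD, n = 3). Integrator had the lowest median, 45.1 TPM in DP and 56.6 TPM in CD8 control samples. Its scaffold gene *Ints1* had 157 ± 16.3 TPM (SD, n = 3) in DP cells and *Ints2*, a backbone subunit, 15.5 ± 3.63 TPM (SD, n = 3), so the transcripts of this assembly were far from equal. The cleavage and polyadenylation genes had medians of 101 and 112 TPM in DP and CD8 cells, from *Cstf3* (29.4 and 27.9 TPM), a subunit of the cleavage stimulation factor, to *Cpsf7* in DP cells (226 TPM), a subunit of cleavage factor I, and the poly(A) polymerase gene *Papola* in CD8 cells (215 TPM). NELF genes spanned 43.1 to 90.6 TPM in DP cells, with *Nelfe*, its RNA-binding subunit, the lowest in both cell types. In the PAF1 complex *Paf1* was the highest, with 136 and 136 TPM, and *Cdc73* (25.2 TPM) the lowest in DP and *Leo1* (28.6 TPM) the lowest in CD8 control samples.

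**Figure D1:**
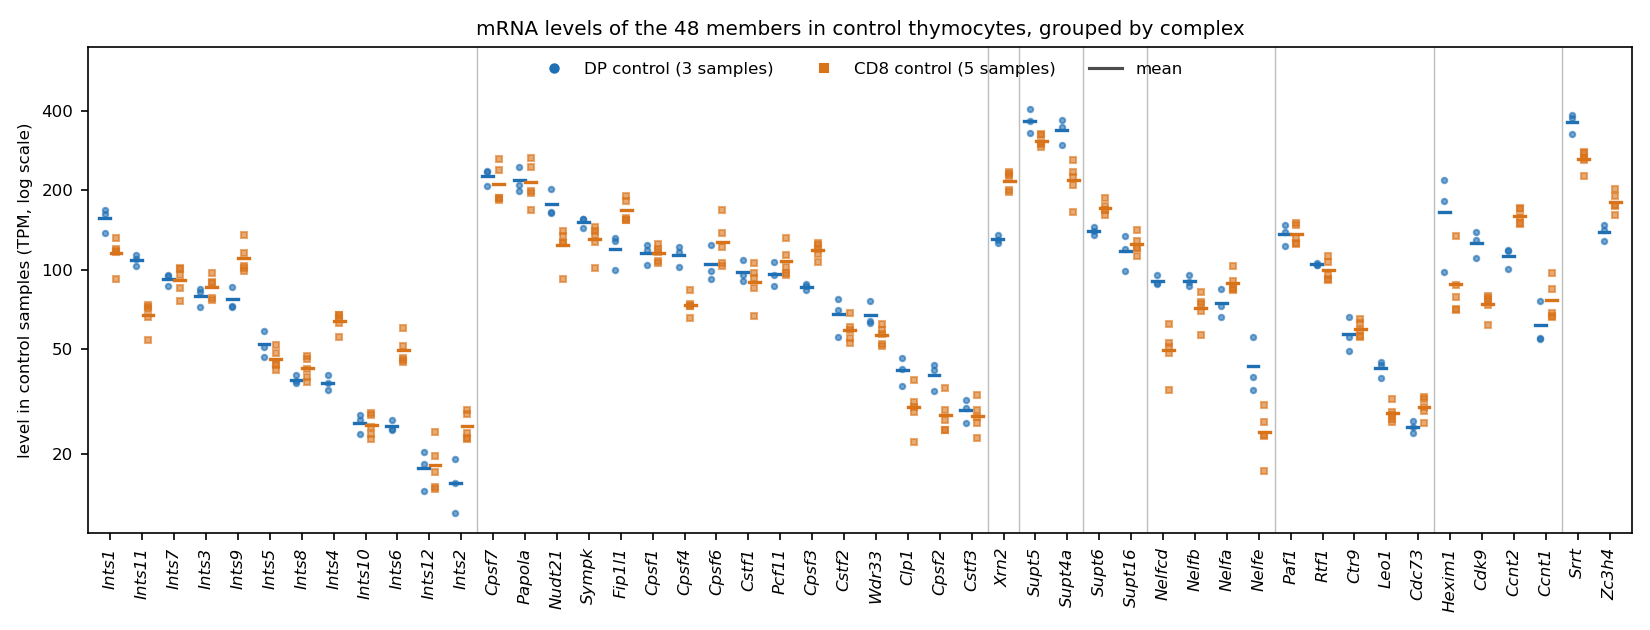
Level of each of the 48 members in control thymocytes in TPM on a log scale, with 1 point per sample (circles, 3 DP control samples; squares, 5 CD8 control samples), a line at the mean, and vertical lines between complexes. *Supt5*, *Srrt* and *Supt4a* are the highest in both cell types and *Ints2* and *Ints12* the lowest in DP cells.

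Spread between control samples was small for most members, with a median coefficient of variation of 9.27% in DP and 9.89% in CD8 cells. *Hexim1*, which encodes the P-TEFb inhibitor, was the most variable in both, at 40.3% and 32.1%. It had 110.1, 223 and 266 CPM in DP control replicates 1 to 3 and 113, 216 and 210.4 CPM in DP cKO replicates 1 to 3. Replicate 1 was far below the other replicates of its group in both DP genotypes. It had 76.7, 71.5, 89.9, 145 and 83.0 CPM in CD8 control replicates 1 to 5 and 82.1, 103, 92.3, 121 and 70.5 CPM in CD8 cKO replicates 1 to 5, with replicate 4 the highest in both genotypes. The groups overlapped in both cell types, and the log2 fold changes between genotypes were -0.15 (SE 0.33, adjusted p = 0.935) in DP and 0.01 (SE 0.19, adjusted p = 0.999) in CD8 cells.

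No member was called between genotypes in either cell type by the quasi-likelihood test of edgeR, where a call needed a fold of 1.5 or more, an adjusted p (Benjamini-Hochberg) under 0.05 and a mean level of 1 TPM or more. In DP cells 0 of 48 members were called, against 0.145% of the 11748 genes tested, and 1 member, *Zc3h4*, had an unadjusted p under 0.05, against 9.18% of all genes. In CD8 cells 0 of 48 were called, against 0.098% of 11227 genes, and 2 members, *Supt4a* and *Zc3h4*, had an unadjusted p under 0.05, against 5.6% of all genes. DESeq2 also called 0 members by this rule in each cell type, where it called 159 genes in DP and 46 in CD8 cells, more than edgeR. When any fold was accepted, a rule added for DESeq2 after seeing the data, it passed 1 member in DP cells, *Zc3h4* (background 1.39%), and 1 in CD8 cells, *Supt4a* (background 0.569%). The median log2 fold change of the members was 0.02 in DP and -0.01 in CD8 cells, beside -0.0011 and -0.01 over all genes tested.

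The estimates were small as well as uncalled. The absolute log2 fold change was under 0.2 for 44 members in DP and 46 members in CD8 cells, and the standard errors of the members had medians of 0.13 and 0.10. Cell types had their own controls, so the comparisons share no sample. The cKO and control samples did not overlap for 4 of 48 members in DP cells, *Zc3h4*, *Ints1*, *Ints7* and *Cpsf1*, each higher in cKO, against 15.1% of all genes. In CD8 cells they were apart for 1 of 48, *Zc3h4*, again higher in cKO, against 1.5% of all genes. CD8 cells without CD8 control replicate 1 and CD8 cKO replicate 4, both left out after seeing the data, also gave 0 members called among 36 genes called, while without CD8 control replicate 2 there was 1, *Supt4a*, among 8.

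**Figure D2:**
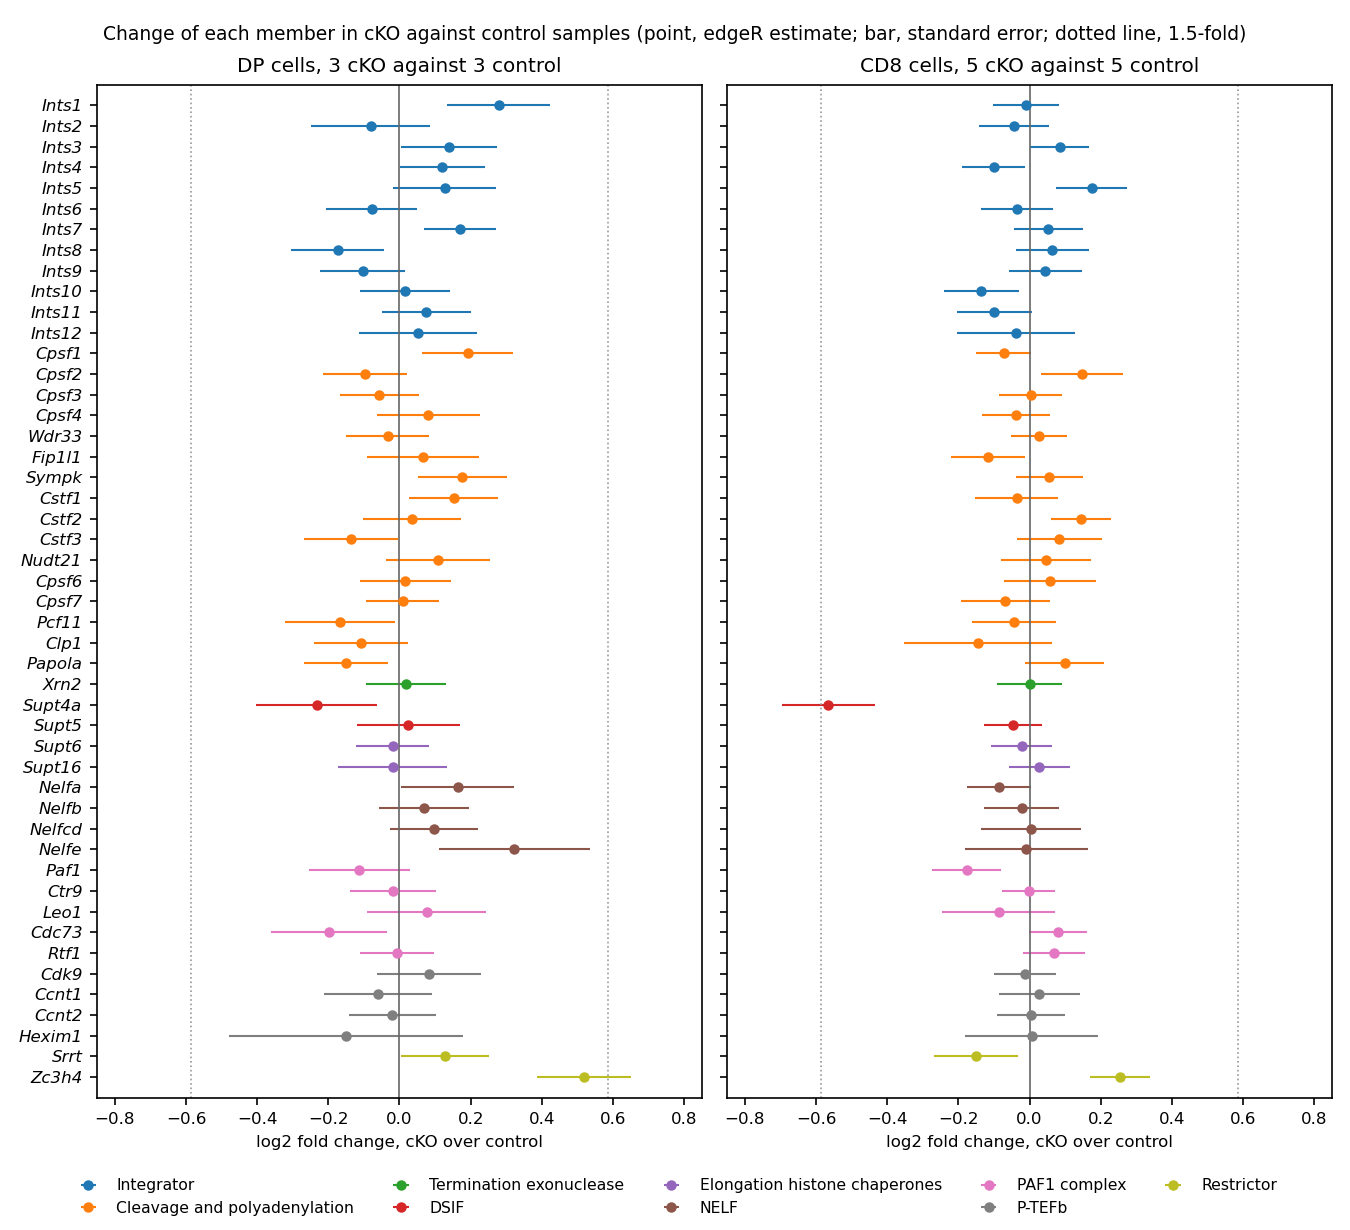
Log2 fold change of each member in cKO over control samples, with DP cells on the left (3 against 3 samples) and CD8 cells on the right (5 against 5), as the edgeR estimate with its standard error, colored by complex, with dotted lines at 1.5-fold. *Zc3h4* lies highest in both cell types and *Supt4a* lowest, and all members lie between the dotted lines.

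The member that stood out most in DP cells was *Zc3h4* (chromosome 7, 16401196 to 16437696 of mm10), the zinc finger subunit of the restrictor, which ends unproductive transcription early in the unit. It had 257, 309 and 321 CPM in DP control replicates 1 to 3 and 378, 415 and 478 CPM in DP cKO replicates 1 to 3. The lowest of the cKO samples was thus above the highest of the control samples (p = 0.1, exact permutation test, 2-sided, the smallest that 3 samples against 3 allow). The log2 fold change was 0.52 (SE 0.13, adjusted p = 0.227) by edgeR, a 1.43-fold difference that missed the test, and 0.51 with an adjusted p of 0.0489 by DESeq2, under the threshold for p but not for fold. With the replicate number as a block, edgeR gave 0.52 (SE 0.08, adjusted p = 0.0197), again short of the fold. The numbers were not taken as pairs (below). In CD8 cells it had 366, 364, 319, 309.8 and 329 CPM in CD8 control replicates 1 to 5 and 395, 433, 376, 437 and 371 CPM in CD8 cKO replicates 1 to 5. Again the groups did not overlap (p = 0.0079, exact permutation test, 2-sided, the smallest that 5 against 5 allow), although the lowest cKO value was close to the highest control value. *Zc3h4* was picked from the 48 members for its small p, and the exact p-values of it and of *Supt4a* below make no allowance for that choice. The log2 fold change in CD8 cells was 0.25 (SE 0.08, adjusted p = 0.537) by edgeR, and DESeq2 gave an adjusted p of 0.240. Without CD8 control replicate 1 and CD8 cKO replicate 4 it was 0.26 (SE 0.08, adjusted p = 0.385 by edgeR). The difference between the changes in CD8 and DP cells, -0.27 (SE 0.15, adjusted p = 0.950) in the edgeR test of that difference, was not called.

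The other restrictor gene, *Srrt*, did not share this pattern. It had 328, 409.7 and 419 CPM in DP control replicates 1 to 3 and 406, 408 and 450.2 CPM in DP cKO replicates 1 to 3, with cKO replicates 1 and 2 inside the control range. In CD8 cells it had 217, 251, 239.6, 255 and 262 CPM in CD8 control replicates 1 to 5 and 251, 269, 224, 168 and 191 CPM in CD8 cKO replicates 1 to 5, with cKO replicate 4 the lowest of the 10 samples. The log2 fold changes were 0.13 (SE 0.12, adjusted p = 0.833) in DP and -0.15 (SE 0.12, adjusted p = 0.979) in CD8 cells by edgeR, and -0.07 in CD8 cells without that library.

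The lowest log2 fold change in CD8 cells was in DSIF. *Supt4a* (chromosome 11, 87737551 to 87743622 of mm10) encodes its small zinc finger subunit Spt4. In CD8 cells it had 78.1, 46.5, 59.6, 67.3 and 68.8 CPM in CD8 control replicates 1 to 5 and 44.5, 44.0, 46.9, 44.6 and 36.3 CPM in CD8 cKO replicates 1 to 5. CD8 cKO replicates 1, 2, 4 and 5 lay below all control samples and replicate 3 just above the lowest control sample, replicate 2, so the groups overlapped at 1 value on each side (p = 0.016, exact permutation test, 2-sided). The log2 fold change was -0.57 (SE 0.13, adjusted p = 0.161) by edgeR, a 1.48-fold difference, just short of the fold that a call needs. DESeq2 gave -0.56 with an adjusted p of 0.0177, which passes on p and not on fold. Without CD8 control replicate 2 edgeR gave -0.66 (SE 0.11, adjusted p = 0.0462), a call, and without CD8 control replicate 1 and CD8 cKO replicate 4 together -0.49 (SE 0.13, adjusted p = 0.245). In DP cells it had 92.5, 118 and 125 CPM in DP control replicates 1 to 3 and 77.8, 114 and 94.3 CPM in DP cKO replicates 1 to 3. These groups overlapped, with a log2 fold change of -0.23 (SE 0.17, adjusted p = 0.753) by edgeR, which was -0.11 without DP cKO replicate 1 and -0.38 without DP cKO replicate 2, and the test of a difference between cell types gave -0.33 (SE 0.22, adjusted p = 0.950), not called. A near-identical intronless copy, *Supt4b*, had at most 12 counts in a sample, and how reads that match both genes were assigned is not stated, so some reads of *Supt4a* may be uncounted.

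Its partner *Supt5*, the large DSIF subunit that P-TEFb phosphorylates, did not follow. It had 383, 463 and 512 CPM in DP control replicates 1 to 3 and 396, 466 and 520.2 CPM in DP cKO replicates 1 to 3, so the ranges of the genotypes were nearly the same. In CD8 cells it had 366, 339, 311, 336 and 328 CPM in CD8 control replicates 1 to 5 and 346, 356, 299.8, 323 and 301 CPM in CD8 cKO replicates 1 to 5, with overlap. The log2 fold changes were 0.02 (SE 0.15, adjusted p = 0.976) and -0.05 (SE 0.08, adjusted p = 0.979) in DP and CD8 cells by edgeR.

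**Figure D3:**
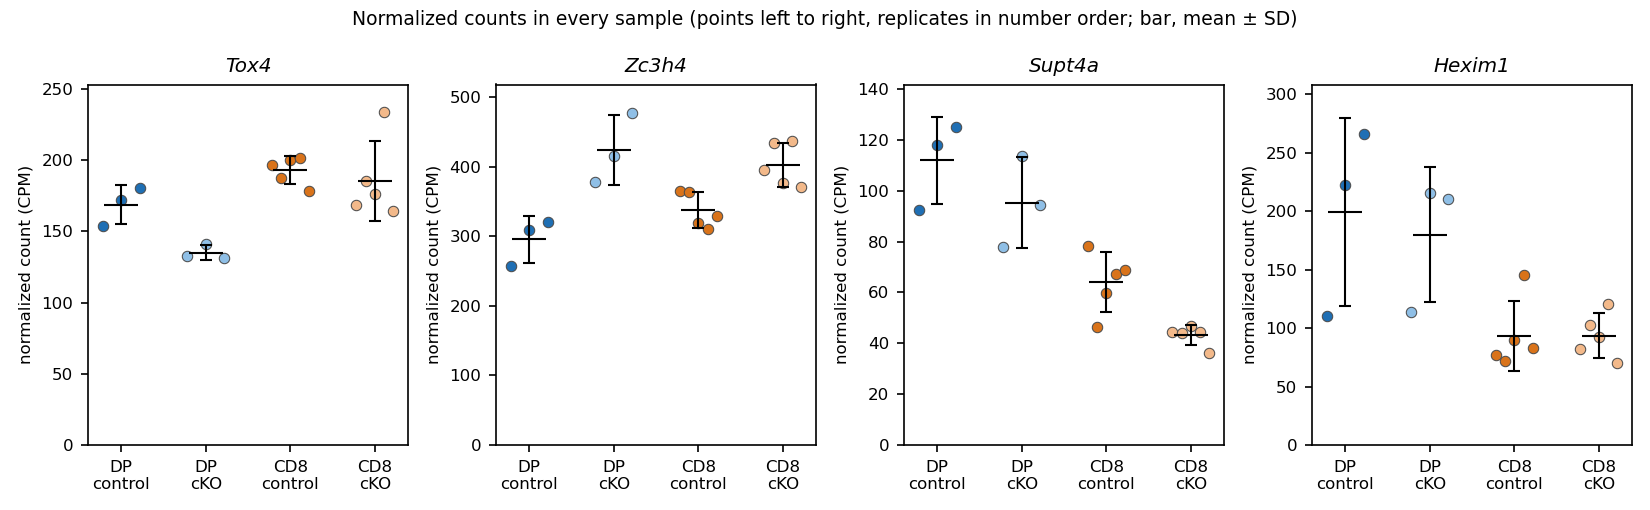
Normalized counts in CPM of *Tox4*, *Zc3h4*, *Supt4a* and *Hexim1* in each of the 16 samples by group, with points in the order of replicate numbers and the mean ± SD of the group. *Zc3h4* is higher in every cKO sample than in every control sample of its cell type, *Supt4a* overlaps at CD8 control replicate 2, and *Tox4* in CD8 cKO replicate 4 is above all CD8 control samples.

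The promoters of *Zc3h4* and *Supt4a*, the members that stood out between genotypes, are shown with those of *Ints6* and *Hexim1*, which had the highest and the lowest log2 fold change between the cell types (below). RefSeq promoters of GRCm38.p6, from 250 bases before to 50 bases after the start of the gene, were matched by symbol for 39 of 48 members, with 40 promoters among them. They are written from 5′ to 3′ on the strand of the gene, with capitals where the letters match, on either strand, the ETS core with CCGGAAG, the GC box with GGGCGG, the TATA box with TATAAA, the CCAAT box with its own name, the cyclic AMP response element with TGACGTCA or the NRF1 core with GCATGCGC.
Zc3h4: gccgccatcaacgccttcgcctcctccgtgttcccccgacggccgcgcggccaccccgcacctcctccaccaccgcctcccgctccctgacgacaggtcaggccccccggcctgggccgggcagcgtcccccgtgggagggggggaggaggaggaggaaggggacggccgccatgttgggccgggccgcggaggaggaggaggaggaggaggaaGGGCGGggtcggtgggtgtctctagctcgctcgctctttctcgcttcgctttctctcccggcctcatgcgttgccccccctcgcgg
Supt4a: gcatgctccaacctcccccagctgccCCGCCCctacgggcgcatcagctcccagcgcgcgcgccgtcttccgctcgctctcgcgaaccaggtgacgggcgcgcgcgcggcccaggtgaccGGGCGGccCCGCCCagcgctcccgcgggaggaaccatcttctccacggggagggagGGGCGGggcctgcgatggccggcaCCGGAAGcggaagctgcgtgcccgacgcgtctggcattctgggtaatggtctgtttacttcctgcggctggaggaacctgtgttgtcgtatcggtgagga
Ints6: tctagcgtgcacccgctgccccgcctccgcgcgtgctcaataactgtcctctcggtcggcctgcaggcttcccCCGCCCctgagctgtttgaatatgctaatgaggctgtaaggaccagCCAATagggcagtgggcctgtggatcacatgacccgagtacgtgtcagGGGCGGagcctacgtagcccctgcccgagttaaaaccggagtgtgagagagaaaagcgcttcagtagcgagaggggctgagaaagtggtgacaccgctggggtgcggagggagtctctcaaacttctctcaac
Hexim1: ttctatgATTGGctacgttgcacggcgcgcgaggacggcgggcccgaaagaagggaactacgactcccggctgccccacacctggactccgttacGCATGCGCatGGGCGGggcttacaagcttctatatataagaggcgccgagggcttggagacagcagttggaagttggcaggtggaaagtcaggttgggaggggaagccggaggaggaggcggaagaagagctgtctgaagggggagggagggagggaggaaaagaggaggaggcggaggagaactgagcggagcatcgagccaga
These lie at chr7:16400946-16401245, plus strand, at chr11:87737301-87737600, plus strand, at chr14:62761063-62761362, minus strand, and at chr11:103116075-103116374, plus strand, each across the annotated start of its gene. The promoter of *Zc3h4* held 1 GC box and no other of these motifs in 74.0% G and C, and that of *Supt4a* held 4 GC boxes and 1 ETS core. In the *Ints6* promoter 2 GC boxes and 1 CCAAT box were found, and in that of *Hexim1* 1 CCAAT box, 1 NRF1 core and 1 GC box. Among the 40 member promoters, 29 held a GC box, 14 a CCAAT box, 12 an ETS core, 5 an NRF1 core, 1 a TATA box and 1 a cyclic AMP response element. Of all 32851 promoters of this length, 35.7% held a GC box, 37.4% a CCAAT box, 8.86% an ETS core, 2.71% an NRF1 core, 13.6% a TATA box and 1.79% a cyclic AMP response element. The median share of G and C was 63.5% in member promoters and 52.7% in all. A match to these letters is no measure of binding.

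Integrator genes lay on both sides of 0. In DP cells 8 of 12 had a positive and 4 a negative log2 fold change, from -0.17 for *Ints8*, whose product contacts PP2A, to 0.28 for *Ints1*. *Ints1* had 325, 419 and 430.0 CPM in DP control replicates 1 to 3 and 445, 432 and 546 CPM in DP cKO replicates 1 to 3. All cKO samples were above the control samples, though cKO replicate 2 only just, and the log2 fold change of 0.28 (SE 0.15, adjusted p = 0.624) was not called. In CD8 cells it had 208, 279, 254, 264 and 265 CPM in CD8 control replicates 1 to 5 and 268, 279, 246, 240.2 and 228 CPM in CD8 cKO replicates 1 to 5, and the groups overlapped at -0.01 (SE 0.09, adjusted p = 0.999) on the log2 scale. *Ints7*, a backbone subunit, had 168, 182 and 166 CPM in DP control replicates 1 to 3 and 191, 192 and 197 CPM in DP cKO replicates 1 to 3, again apart, with a log2 fold change of 0.17 (SE 0.10, adjusted p = 0.681). It had 129.6, 162, 162, 145 and 158 CPM in CD8 control replicates 1 to 5 and 134, 168, 157, 148 and 179 CPM in CD8 cKO replicates 1 to 5, with overlap and a log2 fold change of 0.05 (SE 0.10). The endonuclease gene *Ints11*, which cuts the nascent RNA, had 80.2, 96.0 and 91.9 CPM in DP control replicates 1 to 3 and 88.4, 90.0 and 104 CPM in DP cKO replicates 1 to 3. Its CD8 values were 40.4, 49.6, 51.4, 49.4 and 53.3 CPM in control replicates 1 to 5 and 43.0, 49.8, 45.0, 49.8 and 40.4 CPM in cKO replicates 1 to 5. The genotypes overlapped for *Ints11* in both cell types, at log2 fold changes of 0.08 (SE 0.12) and -0.10 (SE 0.10). In CD8 cells the 12 genes spanned -0.14 for *Ints10*, a tail subunit, to 0.17 for *Ints5*, and the smallest adjusted p was 0.967, beside 0.624 in DP cells, both by edgeR.

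The 16 cleavage and polyadenylation genes were likewise divided, with 9 positive and 7 negative in each cell type and smallest adjusted p-values of 0.723 in DP and 0.966 in CD8 cells by edgeR. In DP cells they lay between -0.17 for *Pcf11*, which binds the polymerase tail and helps to end transcription, and 0.19 for *Cpsf1*, the scaffold of the cleavage and polyadenylation specificity factor (CPSF). In CD8 cells they lay between -0.15 for *Clp1*, the RNA kinase partner of Pcf11, and 0.15 for *Cpsf2*, the partner of the CPSF endonuclease. That endonuclease is encoded by *Cpsf3*, which had 82.7, 85.3 and 87.8 CPM in DP control replicates 1 to 3 and 81.4, 76.3 and 88.2 CPM in DP cKO replicates 1 to 3. Its CD8 samples had 113, 101, 98.5, 96.7 and 109 CPM in control and 89.1, 101, 103, 116 and 111 CPM in cKO replicates 1 to 5. The groups overlapped at log2 fold changes of -0.06 (SE 0.11) in DP and 0.0035 (SE 0.09) in CD8 cells. *Papola* had 367, 340.5 and 322 CPM in DP control replicates 1 to 3 and 346, 306 and 276 CPM in DP cKO replicates 1 to 3. In CD8 cells the same gene had 352, 358, 266, 242 and 279.6 CPM in control and 336, 331, 287, 322 and 328 CPM in cKO replicates 1 to 5, where control replicates 1 and 2 stood above every cKO sample and the other controls below. Its log2 fold changes were -0.15 (SE 0.12) and 0.10 (SE 0.11). *Pcf11* had 205, 181 and 198 CPM in DP control replicates 1 to 3 and 189, 197 and 134 CPM in DP cKO replicates 1 to 3, with cKO replicate 3 the lowest. The log2 fold change of *Pcf11* in DP cells was -0.01 without that sample. In CD8 cells *Pcf11* had 209, 229, 181, 179 and 171 CPM in control and 202, 204, 207, 139 and 189 CPM in cKO replicates 1 to 5, with cKO replicate 4 the lowest and a log2 fold change of -0.04 (SE 0.12), or 0.05 without that library.

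*Xrn2*, whose exonuclease degrades the RNA left after cleavage, had 153, 157 and 158 CPM in DP control replicates 1 to 3 and 154, 175 and 145 CPM in DP cKO replicates 1 to 3. Its CD8 values were 215, 205, 239, 257 and 240.2 CPM in control and 208, 213, 239.7, 234 and 261 CPM in cKO replicates 1 to 5. Both comparisons overlapped and sat near 0, at 0.02 (SE 0.11) in DP and 0.00039 (SE 0.09) in CD8 cells on the log2 scale.

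NELF, which stabilizes the pause, had 4 positive log2 fold changes of 4 in DP cells, from 0.07 for *Nelfb* to 0.32 for *Nelfe*, and none was called. *Nelfe* had 18.5, 32.3 and 22.5 CPM in DP control replicates 1 to 3 and 30.5, 26.3 and 34.9 CPM in DP cKO replicates 1 to 3. Control replicate 2 lay above cKO replicates 1 and 2, the groups overlapped, and the standard error of 0.21 was among the largest of the members (adjusted p = 0.717 by edgeR). Without DP control replicate 2 the log2 fold change of *Nelfe* was 0.58, still not called. CD8 cells had 12.1, 14.7, 8.42, 11.9 and 13.2 CPM of *Nelfe* in control and 13.3, 12.5, 9.90, 14.5 and 9.77 CPM in cKO replicates 1 to 5, the lowest CPM of any member given by sample, at a log2 fold change of -0.01 (SE 0.17). The other NELF genes in CD8 cells lay between -0.09 for *Nelfa* and 0.0042 for *Nelfcd*.

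In the PAF1 complex, which rides with elongating Pol II, no gene was called. *Paf1* had 79.3, 97.7 and 104 CPM in DP control replicates 1 to 3 and 76.9, 85.8 and 96.6 CPM in DP cKO replicates 1 to 3, with overlap. CD8 cells had 93.1, 86.4, 74.1, 78.6 and 79.6 CPM in control and 76.6, 84.7, 69.0, 67.0 and 66.4 CPM in cKO replicates 1 to 5, where replicates 3, 4 and 5 of the cKO samples lay below all control samples and the others did not. The log2 fold changes of *Paf1* were -0.11 (SE 0.14, adjusted p = 0.875) and -0.18 (SE 0.10, adjusted p = 0.954) in DP and CD8 cells by edgeR. *Cdc73* had 62.6, 64.6 and 60.9 CPM in DP control and 56.3, 65.9 and 42.0 CPM in DP cKO replicates 1 to 3. Of these, cKO replicate 3 was far below the others, and cKO replicate 1 was also below all control samples. Subunits other than *Paf1* went no one way, with *Cdc73* at -0.20 and 0.08, *Rtf1* at -0.01 and 0.07, *Ctr9* at -0.02 and -0.0023 and *Leo1* at 0.08 and -0.09 in DP and CD8 cells on the log2 scale. The histone chaperone gene *Supt6*, which encodes Spt6, had 289, 303 and 322 CPM in DP control replicates 1 to 3 and 287, 298 and 316 CPM in DP cKO replicates 1 to 3, with overlap. Its CD8 values were 369.6, 321, 317, 334 and 310.2 CPM in control and 361, 346, 302, 326 and 291 CPM in cKO replicates 1 to 5. The log2 fold changes of *Supt6* were -0.02 (SE 0.10) and -0.02 (SE 0.09), and those of *Supt16*, a FACT subunit that handles histones before the polymerase, -0.02 and 0.03.

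P-TEFb genes had log2 fold changes close to 0 between genotypes. *Cdk9*, the kinase, had 125, 158 and 168 CPM in DP control replicates 1 to 3 and 142, 157 and 179 CPM in DP cKO replicates 1 to 3. Its CD8 samples had 66.2, 74.0, 81.4, 84.5 and 80.9 CPM in control and 78.2, 78.8, 75.2, 78.5 and 73.0 CPM in cKO replicates 1 to 5, with the cKO samples inside the range of the controls. *Ccnt1*, the cyclin that partners it, had 177, 140.4 and 138 CPM in DP control replicates 1 to 3 and 167, 147 and 123 CPM in DP cKO replicates 1 to 3, and in CD8 cells 189, 206, 142, 151 and 150.1 CPM in control and 178, 186, 160.5, 147 and 183 CPM in cKO replicates 1 to 5. The log2 fold changes were 0.08 and -0.01 for *Cdk9*, -0.06 and 0.03 for *Ccnt1* and -0.02 and 0.0032 for the other cyclin gene *Ccnt2* in DP and CD8 cells, with standard errors of at most 0.15.

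Whether the change between genotypes differed between CD8 and DP cells was tested over all 16 samples by edgeR. Of the members, 0 of 48 were called and 0 had an unadjusted p under 0.05, against 0.107% called among 12131 genes and 639 genes at that unadjusted p, and DESeq2 called 0 members among 36 genes called. The member differences ran from -0.34 for *Nelfe* to 0.28 for *Cdc73*, with a median of -0.06, beside -0.01 over all genes. *Cdc73* was lowest in DP cKO replicate 3, and DP cKO replicate 1 was also below every DP control sample.

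Between the cell types, members were called in both directions. Against DP control samples, CD8 control samples had 4 of 48 members called higher, against 22% of the 11758 genes tested, and 9 of 48 called lower, against 22.3%. Accepting any fold, 27 members passed, 9 higher and 18 lower, against 60.3% of all genes. The median log2 fold change was -0.10 for the members and -0.01 for all genes, and the median absolute value was 0.31 and 0.60. Cell type here is also library set, since DP and CD8 libraries come as separate tables of different depth, and they cannot be told apart. Values of both were put on a common CPM scale for this comparison.

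The 4 rises were in Integrator and Xrn2. *Ints6* (chromosome 14, 62676325 to 62761112 of mm10), which tethers PP2A to Integrator, had 39.2, 46.3 and 42.4 CPM in DP control replicates 1 to 3 and 74.0, 91.6, 72.1, 84.3 and 71.4 CPM in CD8 control replicates 1 to 5, and every CD8 sample was higher. It rose by 0.88 (SE 0.12, adjusted p = 7.06e-05) on the log2 scale, the largest rise among the members. *Ints4*, the scaffold of the cleavage module, had 41.1, 38.8 and 41.3 CPM in DP and 71.2, 64.8, 63.2, 59.3 and 70.2 CPM in CD8 control samples, a rise of 0.70 (SE 0.11, adjusted p = 1.45e-04). For *Xrn2* the values were 147, 149 and 152 CPM in DP and 220.1, 209.7, 246, 264 and 248 CPM in CD8 control samples, and for *Ints2* 41.4, 36.3 and 27.8 and 53.4, 61.1, 48.8, 50.9 and 61.9 CPM. None of these groups overlapped, and *Xrn2* rose by 0.67 (SE 0.10, adjusted p = 1.25e-04) and *Ints2* by 0.65 (SE 0.15, adjusted p = 0.00249). The call of *Ints2* was lost without DP control replicate 3, when its log2 fold change was 0.51, under 1.5-fold.

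Several factors of pausing and release were lower in CD8 cells. *Hexim1* had 106, 213 and 256 CPM in DP and 78.6, 73.3, 92.5, 149.7 and 85.7 CPM in CD8 control samples, where DP control replicate 1 lay below CD8 control replicate 4, so the groups overlapped. It had the lowest log2 fold change, -0.995 (SE 0.27, adjusted p = 0.00775), which rested on DP control replicate 3, since without it the value was -0.73 with an adjusted p of 0.0560, not called. Its target *Cdk9* had 119.6, 151 and 161 CPM in DP and 67.9, 75.9, 83.7, 87.0 and 83.6 CPM in CD8 control samples, without overlap, and fell by 0.85 (SE 0.12, adjusted p = 7.73e-05). The cyclin genes did not fall with the kinase, as *Ccnt2* was at 0.43 (SE 0.09, adjusted p = 0.00180), higher at less than 1.5-fold, and *Ccnt1* at 0.24 (SE 0.14, adjusted p = 0.162). In NELF, *Nelfcd* had 68.9, 69.0 and 69.5 CPM in DP and 26.0, 33.5, 37.3, 38.1 and 45.4 CPM in CD8 control samples, and *Nelfe* had 17.8, 30.8 and 21.6 CPM in DP and 12.4, 15.1, 8.66, 12.3 and 13.6 CPM in CD8 control samples. Neither overlapped, with log2 fold changes of -0.94 (SE 0.15, adjusted p = 2.27e-04) for *Nelfcd* and -0.91 (SE 0.21, adjusted p = 0.00262) for *Nelfe*. *Nelfb*, at -0.42 (SE 0.12, adjusted p = 0.00965), was lower at under 1.5-fold, and *Nelfa* was at 0.19 (SE 0.11, adjusted p = 0.144). For DSIF, *Supt4a* fell by 0.70 (SE 0.16, adjusted p = 0.00236).

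Integrator held both rises and a fall. The endonuclease gene *Ints11* had 77.0, 91.6 and 88.3 CPM in DP and 41.4, 50.9, 52.9, 50.8 and 55.0 CPM in CD8 control samples, without overlap, at a log2 fold change of -0.77 (SE 0.12, adjusted p = 1.41e-04). *Ints9*, which pairs with Ints11 in the cleavage module, was at 0.45 (SE 0.12, adjusted p = 0.00739), higher but under 1.5-fold, and *Ints1* at -0.52 (SE 0.12, adjusted p = 0.00313), lower but under 1.5-fold. The remaining calls were all falls, *Cpsf4*, which reads the polyadenylation signal, at -0.70 (SE 0.12, adjusted p = 3.20e-04), *Leo1* of the PAF1 complex at -0.63 (SE 0.13, adjusted p = 0.00107) and *Nudt21*, a cleavage factor I subunit that picks the polyadenylation site, at -0.60 (SE 0.15, adjusted p = 0.00390). *Nudt21* lost its call without DP control replicate 2 or without CD8 control replicate 1, which stood apart, and *Leo1* without DP control replicate 2. With each of the 8 samples left out in turn, the other 9 called members, *Ints4*, *Ints6*, *Ints11*, *Cpsf4*, *Xrn2*, *Supt4a*, *Nelfcd*, *Nelfe* and *Cdk9*, were called every time by edgeR. *Wdr33*, which reads the polyadenylation signal with Cpsf4, was at -0.33 (SE 0.09, adjusted p = 0.00901), and *Cpsf3* at 0.39 (SE 0.09, adjusted p = 0.00387), while its partner gene *Cpsf2* was at -0.57 (SE 0.13, adjusted p = 0.00202) and *Fip1l1*, which binds the poly(A) polymerase, at 0.40 (SE 0.13, adjusted p = 0.0207), so CPSF genes lay on both sides of 0.

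**Figure D4:**
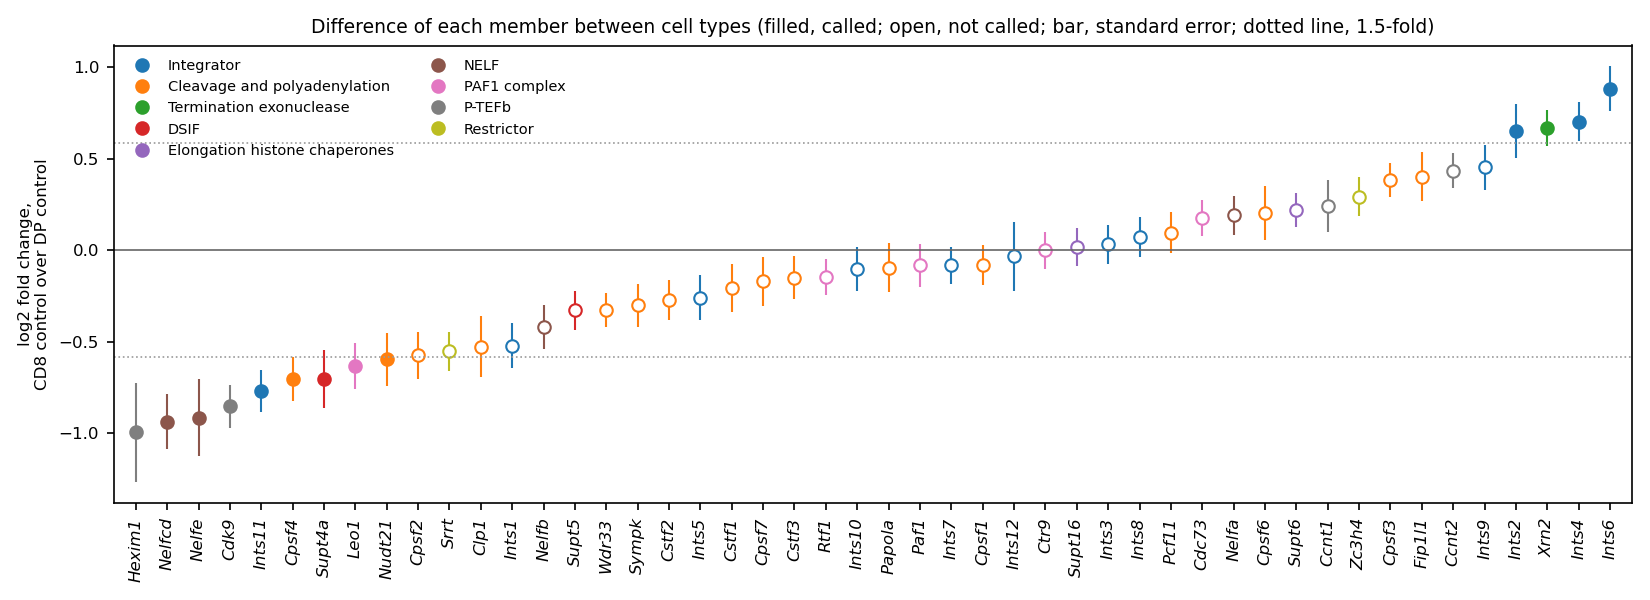
Log2 fold change of each member in CD8 control over DP control samples (5 against 3), in order of size, as the edgeR estimate with its standard error, colored by complex, filled where called and open where not, with dotted lines at 1.5-fold. The 4 called higher are *Ints6*, *Ints4*, *Xrn2* and *Ints2*, and the 9 called lower run from *Hexim1* to *Nudt21*.

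These differences went with the length of the transcript. All 9 members called lower in CD8 cells were among the 24 members with under 3592 exonic bases in the authors' gene models, of which 2 were called higher, and among the 24 longer members 0 were called lower and 2 higher. The median log2 fold change was -0.37 for shorter and -0.04 for longer members. Over all genes tested, the median was -0.18 among 7061 shorter genes, with 1291 called higher and 2004 called lower. Among 4697 longer genes it was 0.21, with 1297 called higher and 621 called lower. Between genotypes the medians of shorter and longer members were 0.07 and -0.02 in DP and -0.04 and 0.04 in CD8 cells. *Supt4a*, with 942 exonic bases, is the shortest of the members and *Zc3h4*, with 6051, among the longer. The part of length in the difference between cell types was not tested.

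A further 59 genes that work with these members, such as Pol II subunits, the super elongation complex and other kinases of the polymerase tail, were read beside them. Between genotypes 0 of 57 tested were called in DP cells and 0 of 56 in CD8 cells by edgeR, with 1 at an unadjusted p under 0.05 in each. The smallest p-values in DP cells were those of *Ell2*, an elongation factor of the super elongation complex, at -1.21 (SE 0.41, adjusted p = 0.380) with at most 24 counts in a DP sample and a mean under 1 TPM, too low for a call, and of the Pol II subunit genes *Polr2i* at 0.44 (SE 0.19, adjusted p = 0.548) and *Polr2f* at 0.36 (SE 0.17, adjusted p = 0.576). In CD8 cells they were those of *Polr2l* at -0.56 (SE 0.23, adjusted p = 0.808), *Nabp1*, which encodes a single-stranded DNA binding partner of Integrator, at 0.35 (SE 0.18, adjusted p = 0.940) and *Polr2j* at -0.31 (SE 0.17, adjusted p = 0.954). Between cell types 9 of 57 were called higher and 16 lower in CD8 cells, beside 22% higher and 22.3% lower among all genes. The largest rises were those of *Nabp2* by 1.58 (SE 0.27, adjusted p = 3.19e-04), *Mllt3* by 1.23 (SE 0.13, adjusted p = 7.33e-06) and *Rprd2*, a reader of the polymerase tail, by 1.17 (SE 0.11, adjusted p = 2.99e-06), while *Nabp1*, the alternative to *Nabp2* in the same complex, had a log2 fold change of -1.95 (SE 0.24, adjusted p = 2.91e-05). The other large falls were those of *Eaf2*, at -2.62 (SE 0.65, adjusted p = 0.00419), and *Polr2i*, at -1.81 (SE 0.24, adjusted p = 5.19e-05). Of the 13 Pol II subunit genes 9 were called lower and 0 higher. Those not called were *Polr2a* at 0.50 (SE 0.21), *Polr2m* at 0.15 (SE 0.11), *Polr2b* at -0.09 (SE 0.10) and *Polr2e* at -0.57 (SE 0.13).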

How the data were processed

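Fragments per gene were measured by strand-specific RNA-seq. Per the submitters' processing notes, the authors filtered reads with fastp (0.13.1), aligned them with HISAT2 (2.1.0) to mm10, counted fragments with featureCounts (1.6.1) and deposited raw counts in 1 table per cell type. Samples were grouped by the genotype and cell type in their labels. Total counts ran from 8514135 to 25981683 per sample, and without molecular identifiers counts are not independent molecules. TMM normalization, filterByExpr and the quasi-likelihood test of edgeR (4.0.16, R 4.3.3) were run on each table without covariates, with Benjamini-Hochberg adjustment over all genes tested, on the genes of both tables for comparisons across cell types. All tests were 2-sided. The difference of the change between cell types was called on adjusted p alone. DESeq2 (1.42.0) was the other test, and the normalization, the filter, the call rule, the samples and a replicate block were varied. TPM and CPM were computed here, TPM with the exonic lengths in the DP table for both cell types. The steps were tested on simulated data with 200 genes changed 2-fold, of which 98.5% were recovered for DP cells and 100% for CD8 cells. That fold is larger than those of *Zc3h4* and *Supt4a* between genotypes, so this does not measure the power to find such changes. Replicates were compared, and no pair of a group differed by as little as sampling noise, with a chi-square per degree of freedom of at least 5.69. Values in every sample were given for the 3 members with the smallest p in each genotype comparison, for members chosen for their roles, and those in every control sample for the called members with the 5 largest rises and falls between cell types. The members and lists were chosen with earlier results of these data known. *Wdr33* and others outside that rule are given by fold change only, except *Cdc73*, added for its low DP cKO replicate 3, and those singled out between cell types were chosen after their values were seen. No same-strand exon of another gene overlaps a member in the gene models, other than the microRNA gene *Mir3112* in *Cstf2*. *Cstf2* also has a similar intronless copy, *Cstf2t*, and reads matching both may be split or lost. Figures used matplotlib (3.10.9) in Python (3.11.15).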

Additional observations from a re-analysis of the deposited data

Results flagged for a closer look

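For 22 genes, *Tox4* and the members named with values other than *Cdc73*, 44 groups of 5 CD8 samples were examined, and in 5 of them 1 sample lay far from the others by Dixon's limit, which chance exceeds in about 1 in 20 groups. In CD8 cKO samples, *Papola* was 287 CPM in replicate 3 with the next sample at 322 CPM, and *Pcf11* was 139 CPM in replicate 4 with the next at 189 CPM. *Supt4a* was 36.3 CPM in CD8 cKO replicate 5 against 44.0 CPM in the next sample, and *Nelfcd* was 43.0 CPM in the same library against 34.5 CPM. *Hexim1* was 145 CPM in CD8 control replicate 4, with the next sample at 89.9 CPM. The number of genes with at least 1 count was 17741 in CD8 control replicate 1, with the next sample at 14194.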

How the results depend on the processing

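Between genotypes 0 members were called under each normalization, DESeq2, no filter, any fold, and all groups in 1 fit, which called 15 to 159 genes in DP and 11 to 46 in CD8 cells. Leaving out each DP sample also gave 0, but those fits called 0 to 8 genes in all and say little of the members. With each CD8 sample left out the count was 0 to 1 among 4 to 20 genes, and only the fit without CD8 control replicate 2 called a member. Combining DESeq2 with any fold, chosen after seeing the data, gave 1 member among 176 genes in DP and 1 among 67 in CD8 cells. Replicate numbers are shared by the genotypes, but the deviations of same-numbered samples had correlations as low as 0.0936 in DP and 0.0952 in CD8 cells. Their means were 0.366 and 0.293, and those for differently numbered samples were -0.175 and -0.0761. Deviations were taken from the mean of each group and sum to 0 within it. The means for differently numbered samples thus largely follow from the others and are no separate background. The lowest correlations were under the 0.1 set for pairing, and 2 of 6 DP and 6 of 10 CD8 samples correlated best with their own number, so the numbers were not taken as pairs. With the replicate number as a block, 0 members were called in DP cells, in CD8 cells and for the difference between them, while all genes called went from 17 to 131 in DP and from 11 to 31 in CD8 cells. Block and any fold together, added after seeing the data, passed 152 genes with 1 member in DP cells, *Zc3h4* (adjusted p = 0.0197 by edgeR), and 44 genes with 0 members in CD8 cells, where *Supt4a* had an adjusted p of 0.0584. The block median was 0.02 in DP and -0.01 in CD8 cells. Between cell types, 11 to 15 members were called with 1 sample left out and 27 at any fold. Of the log2 fold changes of the 18 named genes between genotypes, 11 of 180 values in DP and 42 of 252 in CD8 cells changed sign, none of them called, and 0 of 99 did between cell types. Where a call moved, the cause was not tested.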
